A study of Mus musculus with 6 samples.

Results

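Heat shock proteins are chaperones, which bind unfolded proteins and help them fold, hold them soluble or hand them over for degradation. A group of 10 such transcripts, here called the heat shock set, was followed in mouse cardiomyocytes after doxorubicin: Hspa1a, Hspa1b, Hspa8, Hsp90aa1, Hsph1, Dnajb1, Hspb1, Hspb6, Hspb7 and Hspb8. They were taken by name, and all 10 were present among 24972 gene rows and passed the minimum mean of 10 that left 12477 genes tested. The set divides by role. Hspa1a, Hspa1b and Hspa8 encode Hsp70 chaperones driven by ATP, Dnajb1 the J-domain partner that delivers clients to them, Hsph1 an Hsp110 that resets them by nucleotide exchange, and Hsp90aa1 an Hsp90 that acts later in folding. Hspb1, Hspb6, Hspb7 and Hspb8 encode small heat shock proteins, which need no ATP, hold clients through an alpha-crystallin domain and are abundant in heart muscle. In stressed cells heat shock factor 1 binds repeats of nGAAn in the promoters of the inducible members, of which Hspa1a and Hspa1b respond most sharply, whereas Hspa8 is made constitutively.

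RNA came from 6 libraries, each from the ventricles of an MX1gfp mouse, a fluorescent reporter strain for the interferon-induced gene Mx1, so that vehicle and treated mice alike carried the reporter. Of these mice, 3 received vehicle (phosphate-buffered saline) and 3 received doxorubicin, an anthracycline that poisons topoisomerase II and is toxic to the heart, as a single dose of 25 mg per kg, each given into the peritoneum in 100 microlitres. At 48 hours the hearts were digested with collagenase, and heart muscle cells from the ventricles with the septum sank under gravity for 20 minutes, which enriches for cardiomyocytes without sorting them. The labels give neither the age nor the sex of the mice, and the numbers in the titles are not said to pair them.

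Library-wide facts bear on every value below. Deposited normalized counts summed to 7217949 to 7500386 per vehicle library and 5410780 to 6498373 per doxorubicin library. The step between low values put the underlying reads at about 7710000 to 11300000 and 3670000 to 6180000, so depth and treatment cannot be told apart. Doxorubicin replicate 1 resembled the vehicle libraries (Spearman correlation across tested genes 0.977 to 0.982), whereas replicates 2 and 3 did so less (0.896 to 0.914 and 0.860 to 0.876). All 12 ventricular cardiomyocyte markers, such as Myh6 and Tnnt2, were measured, and their summed value ran from 756256 to 855970 with vehicle and from 192695 to 645083 with doxorubicin. Of these 12, 9 were lower without overlap between groups. Of all genes tested 22.6% were so, and of those with a mean of at least 1000, 46.5%. Summed macrophage markers ran from 2489 to 2727 and from 4149 to 15479 (higher without overlap in 9 of 10), endothelial markers from 13112 to 16872 and from 20433 to 26389.7 (5 of 8), and fibroblast markers from 6236 to 8274 and from 8639 to 22816 (3 of 8). Neutrophil markers summed to 10.5 to 21.7 and 55.0 to 563, with 3 of 4 tested markers higher without overlap. Of all genes tested 19.2% were higher without overlap. None of these 4 lists, from macrophage to neutrophil, had a marker at 0 in all libraries. Summed atrial (456 to 526 and 368 to 1431), mural (6611 to 11656 and 8255 to 11766), lymphocyte (17.7 to 32.5 and 8.37 to 61.8) and erythroid markers (1211 to 2104 and 249.8 to 9027) overlapped between groups. In RNA from a bulk preparation, fewer cells of a type and less RNA per cell cannot be told apart, and the part of these shifts in the results below was not tested.

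Promoter sequences are shown for the half-sites that heat shock factor 1 is known to bind and for the near identity of Hspa1a and Hspa1b. RefSeq sequences (GRCm38.p6, the assembly that mm10 denotes) were found for 8 of the 10 members, in 11 entries. The promoter sequences available here held no entry for Hspa8 or Hsp90aa1. The 250 bases before each start were searched for a pair of half-sites facing each other, GAANNTTC or TTCNNGAA. Each of these reads the same on both strands. The first was found in 6.69%, the second in 7.17% and either in 12.8% of 32851 promoter windows of the same length. Among the members 5 of 8 held at least 1 pair: Hspa1a, Hspa1b, Hsph1, Hspb1 and Hspb6, the last in 1 of its 2 entries. That entry lies within the gene, where an annotated Hspb6 exon overlaps. The 12.8% counts windows and the 5 of 8 counts genes, of which Hsph1, Hspb6 and Dnajb1 had 2 entries each. Since Hspa1a and Hspa1b are nearly identical there, their matches are not independent, and the 2 shares are not directly comparable. No pair lay in the windows of Dnajb1, Hspb7 and Hspb8. A match is a run of letters and says nothing of whether the factor binds there. The stretch from 215 to 31 bases before the start is printed 5′ to 3′ for the nearly identical Hsp70 pair and for the 3 small heat shock genes in which it lies outside annotated exons, with each half-site pair in capitals. Its positions are chr17:34972187-34972371 (minus strand) for Hspa1a, chr17:34959269-34959453 (minus) for Hspa1b, chr5:135887704-135887888 (plus) for Hspb1, chr4:141420564-141420748 (plus) for Hspb7 and chr5:116422895-116423079 (minus) for Hspb8.
Hspa1a: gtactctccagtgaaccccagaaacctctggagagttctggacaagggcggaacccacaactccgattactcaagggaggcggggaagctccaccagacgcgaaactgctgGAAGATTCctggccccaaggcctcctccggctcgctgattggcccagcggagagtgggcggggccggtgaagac
Hspa1b: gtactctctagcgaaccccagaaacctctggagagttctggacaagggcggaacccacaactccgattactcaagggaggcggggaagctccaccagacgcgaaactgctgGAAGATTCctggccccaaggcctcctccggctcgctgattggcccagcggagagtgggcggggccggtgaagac
Hspb1: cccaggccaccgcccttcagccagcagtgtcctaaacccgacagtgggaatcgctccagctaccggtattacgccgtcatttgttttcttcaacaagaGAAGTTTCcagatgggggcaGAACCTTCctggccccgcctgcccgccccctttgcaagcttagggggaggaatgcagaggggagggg
Hspb7: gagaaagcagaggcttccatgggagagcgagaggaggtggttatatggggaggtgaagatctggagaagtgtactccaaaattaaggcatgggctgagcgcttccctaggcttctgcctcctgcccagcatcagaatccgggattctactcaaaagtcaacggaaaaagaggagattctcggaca
Hspb8: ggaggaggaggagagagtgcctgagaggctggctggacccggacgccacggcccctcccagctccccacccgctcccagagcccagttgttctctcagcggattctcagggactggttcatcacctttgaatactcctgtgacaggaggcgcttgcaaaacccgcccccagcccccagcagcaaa

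Hspa1a and Hspa1b (chromosome 17, 34969359 to 34972156 and 34956429 to 34959238) are neighbouring genes of 1 exon each. Their 250 upstream bases differed at 3 positions, 207, 204 and 2 bases before the start, and the half-site pair lay at the same place, beginning 104 bases before it. Their coding sequences were 99.5% identical over 1926 aligned bases, with the stop codon left out. Reads from the coding part can therefore often not be assigned to either gene, and the sum of both is given beside each. The pairs of Hspb1 (chromosome 5, 135887919 to 135889563) began 117 and 97 bases before its start.

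In vehicle libraries the transcripts differed widely in level. Per kilobase of transcript, Hspb7 stood first at 7477 ± 296 normalized counts (SD, n = 3), followed by Hspa8 at 6432 ± 124, Hspb6 at 6041 ± 523, Hspb1 at 3129 ± 513 and Hspb8 at 2559 ± 201. Hsp90aa1 was lower at 452 ± 64.5. Hspa1a (189.7 ± 167), Hspa1b (142 ± 154), Hsph1 (125 ± 23.5) and Dnajb1 (121 ± 51.3) formed the low end. Vehicle values overlapped between the neighbours Hspa8 and Hspb6, between Hspb1 and Hspb8, between Hsp90aa1 and Hspa1a, and among the last 4. Every other step in this order was larger than the spread of the libraries. The small heat shock transcripts and Hspa8 were thus the most abundant of the set, and Hspa1a, Hspa1b, Hsph1 and Dnajb1 the least. By mean count over both groups, Hspa1a still ranked 2297 and Dnajb1, the lowest member, 4042 among the 12477 genes tested. Cryab, a small heat shock gene outside the set, was higher still at 12602 ± 764 per kilobase.

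The comparison of doxorubicin with vehicle asked how these levels differed 48 hours after the dose. No member passed the test: limma on log2(value + 1) called 0 of 10 at a Benjamini-Hochberg adjusted p under 0.05, as it called 0 of 12477 genes in either direction (0% of genes tested), with a smallest adjusted p of 0.0859 and 4485 genes at an unadjusted p under 0.05. In 6 of the 10 members, all lower, the doxorubicin values lay below all vehicle values, against 22.6% of all genes tested. These 6, Hspb1, Hspb6, Hspb7, Hspb8, Hspa8 and Hsp90aa1, are the members with a mean of at least 1000, and of all 1206 tested genes that high 46.5% were lower without overlap. In the other 4, Hspa1a, Hspa1b, Hsph1 and Dnajb1, the groups overlapped. The median log2 fold change of the set was -0.39 and that of all genes tested 0.00 (-0.0046). Among genes with a mean of at least 1000 it was -0.57 for the 6 members and -0.35 for all tested genes. For the other 4 members it was -0.11. These differences between medians were not tested. The plot of values by library shows each measurement. For a single gene, exact permutation of 3 against 3 libraries, two-sided, gives no p below 0.1, so none is reported. At an unadjusted p under 0.05 stood 2 members, Hspb6 and Hspb8, both lower, against 19.3% of genes tested, and the same 2 had an adjusted p under 0.10, against 13.1%.

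**Figure D1:**
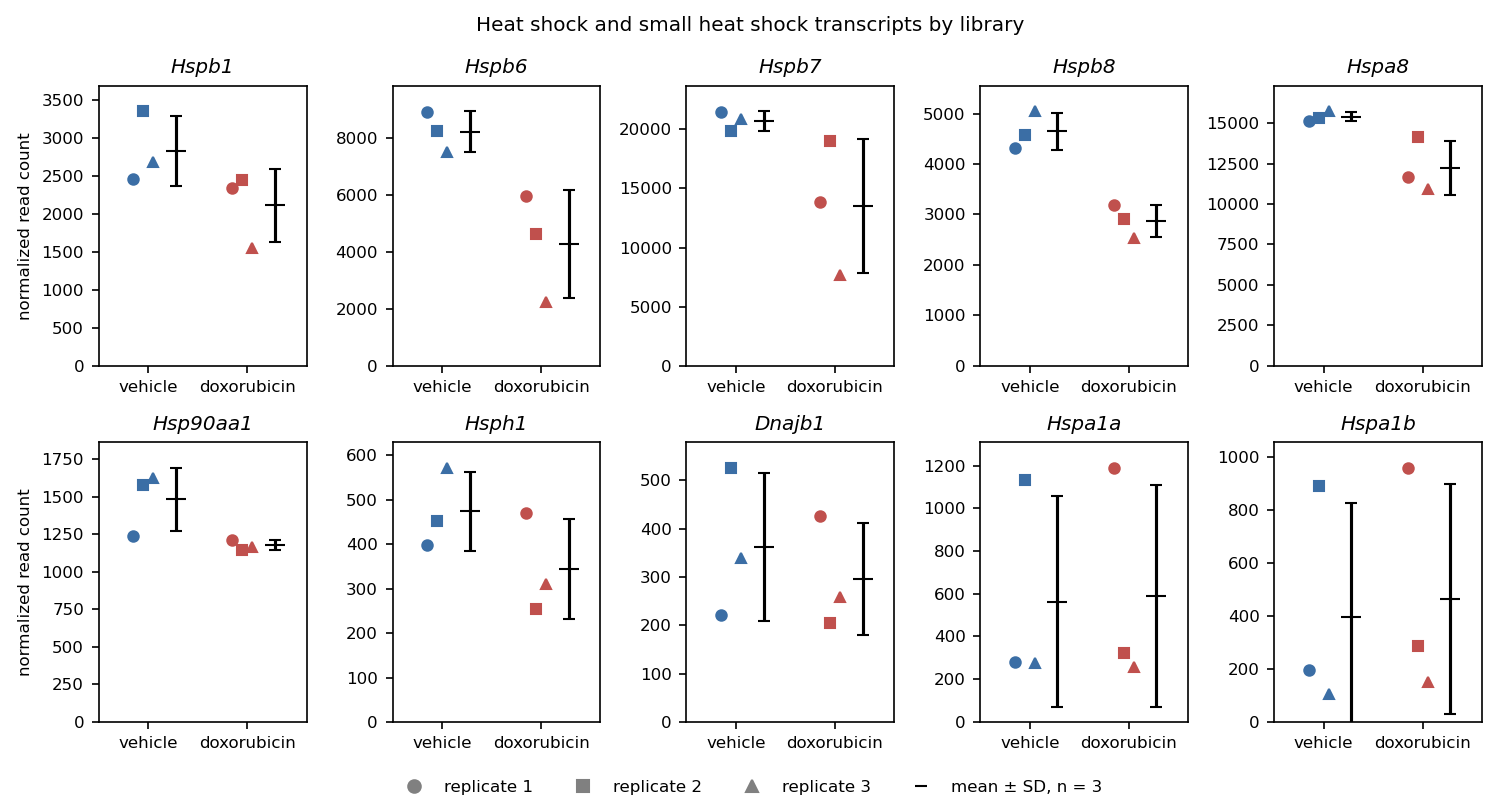
Normalized read counts (vertical axes, each starting at 0) of the 10 transcripts in 3 vehicle (blue) and 3 doxorubicin (red) libraries. Marker shape gives the replicate and black bars the mean ± SD (the lower bar of Hspa1b with vehicle is clipped at 0). The groups are apart in Hspb1, Hspb6, Hspb7, Hspb8, Hspa8 and Hsp90aa1, while Hspa1a and Hspa1b are high in vehicle replicate 2 and doxorubicin replicate 1.

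The small heat shock transcripts were lower in every doxorubicin library. Hspb8 (chromosome 5, 116408491 to 116422864) encodes the partner of Bag3 in chaperone-assisted autophagy, which clears damaged muscle proteins. In order of replicate number, it had 4329, 4569 and 5045 normalized counts with vehicle and 3181, 2904 and 2537 with doxorubicin. The 3 treated libraries lay below the lowest vehicle library. The mean went from 4648 ± 365 to 2874 ± 323 (SD, n = 3), 61.8% of vehicle, with a log2 fold change of -0.70 (SE 0.19, 95% interval -1.13 to -0.26, limma adjusted p 0.0859). This was the smallest adjusted p of the set. The value was -0.39 with equal library totals, a scaling that moved the median of all genes to 0.29, and -0.35 under quantile normalization.

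Hspb6 (chromosome 7, 30552535 to 30555443), whose product is phosphorylated by protein kinase A in the heart, had the largest difference. Its values were 8942, 8245 and 7516 with vehicle and 5986, 4645 and 2242 with doxorubicin. The treated libraries spread over a 2.67-fold range, replicate 3 being lowest, and none reached the vehicle values. The mean went from 8234 ± 713 to 4291 ± 1897, 52.1% of vehicle, a log2 fold change of -1.05 (SE 0.37, interval -1.91 to -0.20, adjusted p 0.0969). Without doxorubicin replicate 3 it was -0.64, and under quantile normalization -0.62.

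Hspb7 (chromosome 4, 141420779 to 141425310) is the most heart-restricted of the 4 and its product binds filamin C. It had 21447.5, 19827 and 20839.9 with vehicle and 13885, 18978 and 7640.45 with doxorubicin. Vehicle values agreed within 1.08-fold, while doxorubicin replicate 2 came close to them and replicate 3 was far below. The log2 fold change was -0.71 (SE 0.39, interval -1.63 to 0.21, adjusted p 0.223), and it was -0.35 without doxorubicin replicate 3, -0.41 with equal library totals and -0.11 under quantile normalization. Hspb1, whose product guards the actin cytoskeleton, had 2457, 3345 and 2674 with vehicle and 2335, 2436 and 1551 with doxorubicin. Its groups were separated by a small gap, and the log2 fold change was -0.44 (SE 0.23, interval -0.99 to 0.11, adjusted p 0.211). It was -0.23 without doxorubicin replicate 3, -0.14 with equal library totals and -0.20 under quantile normalization.

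Hspa8 (chromosome 9, 40801276 to 40805202) and Hsp90aa1 (chromosome 12, 110691036 to 110696395) had smaller differences. Hspa8, which also uncoats clathrin vesicles, had 15138, 15334 and 15723 with vehicle and 11645, 14135 and 10915 with doxorubicin. The vehicle libraries agreed within 1.04-fold and every treated library lay below them. Its log2 fold change was -0.34 (SE 0.27, interval -0.98 to 0.29, adjusted p 0.387), with -0.04 at equal library totals, and under quantile normalization it turned to 0.12. Hsp90aa1 had 1240.3, 1579.7 and 1629 with vehicle and 1214, 1149 and 1168 with doxorubicin, so that vehicle replicate 1 lay near the treated libraries. Its log2 fold change was -0.32 (SE 0.16, interval -0.70 to 0.06, adjusted p 0.190), and it was -0.02 with equal library totals and -0.14 under quantile normalization. Reads of Hspa8 and Hsp90aa1 may be shared with processed pseudogenes.

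The transcripts of the inducible Hsp70 pair varied more among mice of a group than between groups. Hspa1a had 279, 1134 and 275 with vehicle and 1189.9, 321 and 257 with doxorubicin. Hspa1b had 196, 893 and 105 with vehicle and 961, 286 and 149 with doxorubicin. In each group 1 library stood apart, vehicle replicate 2 and doxorubicin replicate 1, and the highest vehicle library exceeded the lowest 4.12-fold for Hspa1a and 8.53-fold for Hspa1b. Their sum was 475, 2027 and 380.1 with vehicle and 2151, 607 and 406 with doxorubicin, and so held the same pattern. The log2 fold change was 0.06 for Hspa1a (SE 0.71, interval -1.60 to 1.71, limma adjusted p 0.962) and 0.39 for Hspa1b (SE 0.88, interval -1.67 to 2.45, adjusted p 0.773). These intervals are wide enough to hold a doubling or a halving in either direction. Without doxorubicin replicate 1 both values were below 0 (-0.63 and -0.35), and without vehicle replicate 2 both were above 0 (0.73 and 1.26). Without vehicle replicate 3 they were -0.29 and -0.28, and without vehicle replicate 1 they were -0.28 and 0.17.

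Dnajb1 (chromosome 8, 83608175 to 83612653) shared the peak in vehicle replicate 2. It had 221, 526 and 339 with vehicle and 426, 205 and 258 with doxorubicin, where replicate 1 was again highest. Its log2 fold change was -0.27 (SE 0.37, interval -1.13 to 0.58, adjusted p 0.616), and it was 0.04 without vehicle replicate 2 and 0.03 with equal library totals. It was -0.58 without vehicle replicate 1, -0.57 without doxorubicin replicate 1, -0.04 without doxorubicin replicate 2 and -0.67 with library weights. Hsph1 (chromosome 5, 149616843 to 149636498) had 398, 453 and 572 with vehicle and 469.8, 254 and 310.0 with doxorubicin. Only doxorubicin replicate 1 reached into the vehicle range. Its log2 fold change was -0.49 (SE 0.25, interval -1.08 to 0.10, adjusted p 0.196). It was -0.19 with equal library totals, -0.30 without doxorubicin replicate 2 and -0.74 without doxorubicin replicate 1.

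Other transcripts were compared in the libraries high in Hspa1a and Hspa1b. Of 12 immediate early genes, which are switched on within minutes of a stimulus and also by tissue digestion, 12 had their highest vehicle value in vehicle replicate 2, and 9 were highest there among all 6 libraries. Their summed values were 17876, 31158 and 23571 with vehicle and 24035, 16442 and 21159 with doxorubicin. Fos, named outside the rule for examples, had 2083, 4837 and 3687 with vehicle and 3532, 1265 and 1947 with doxorubicin, and was highest in the same library of each group as Hspa1a. Among the doxorubicin libraries 7 of the 12 were highest in replicate 1, but 0 were highest there among all 6 libraries, against 3 in doxorubicin replicate 3. The median change of the 12 from the vehicle mean was 0.41 in vehicle replicate 2 and 0.03 in doxorubicin replicate 1. That library also held the highest summed atrial (1431) and erythroid (9027) markers of the 6. Whether these shifts bear on Hspa1a and Hspa1b was not tested. The mice also divided by Xist and Y-linked transcripts, with vehicle replicate 3 and doxorubicin replicates 1 and 3 in the Xist class, and within classes the difference was 1.00 (Xist) and -0.81 (Y-linked) for Hspa1a and 1.85 and -0.55 for Hspa1b. For Hspb6 it was -1.04 and -0.89, for Hspb8 -0.83 and -0.61, for Hspb1 -0.49 and -0.23, and for Hspb7 -1.02 and -0.12. Each class held 1 or 2 libraries of a treatment, so these are values without a test.

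**Figure D2:**
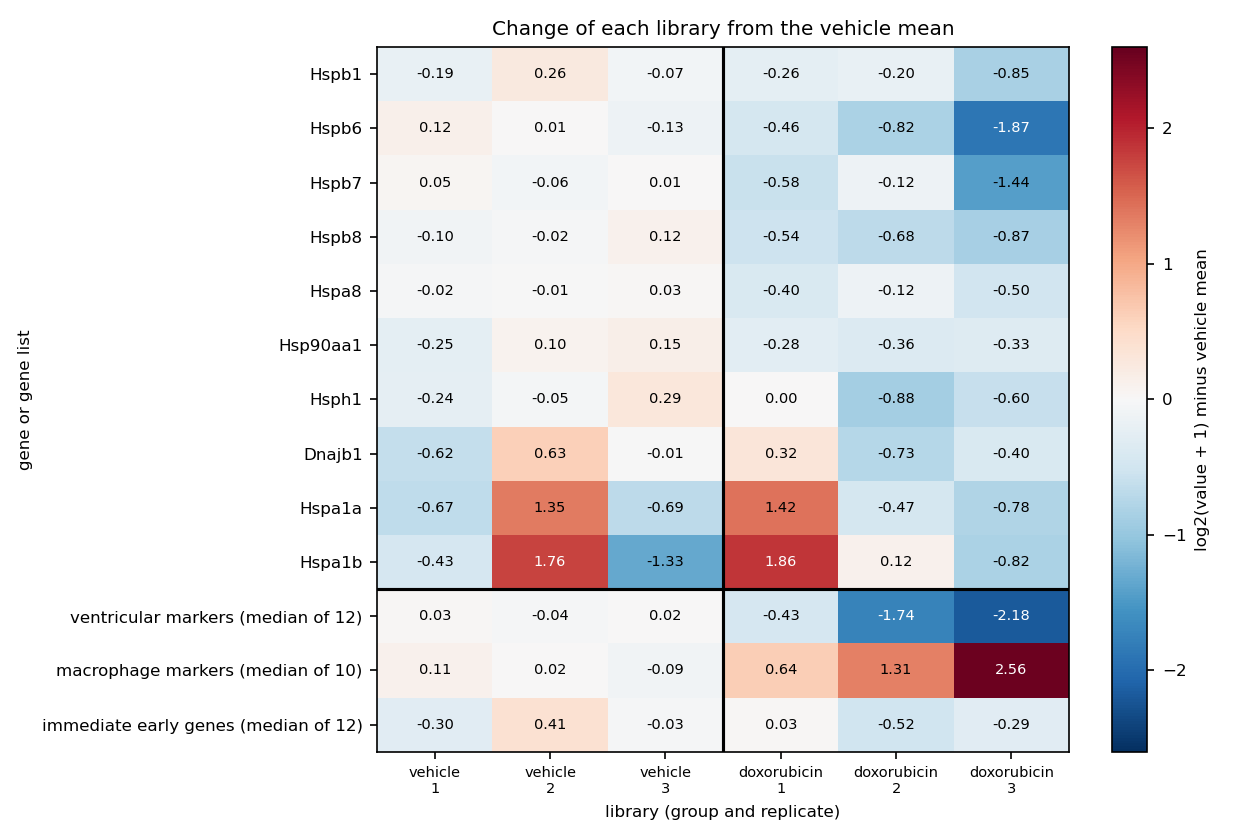
Change of each library (columns, group and replicate) from the mean of the 3 vehicle libraries, as log2(value + 1), for the 10 transcripts and for the medians of 3 lists (rows), with red above and blue below the vehicle mean. The 4 small heat shock rows and those of Hspa8 and Hsp90aa1 are below 0 in all doxorubicin columns. Hspa1a and Hspa1b reach 1.35 and 1.76 in vehicle replicate 2 and 1.42 and 1.86 in doxorubicin replicate 1.

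The number of members called differed between fits. Without doxorubicin replicate 1 limma called 3 members lower, against 21.8% of genes tested (19.3% were called higher): Hspb6 (log2 fold change -1.35, adjusted p 0.0107), Hspb8 (-0.77, adjusted p 0.0116) and Hsph1 (-0.74, adjusted p 0.0166). The same 3 were called when limma weighted all libraries by their fit, with weights of 1.47, 3.24 and 1.59 for vehicle and 0.277, 1.13 and 0.425 for doxorubicin replicates (18.6% of genes tested were called lower and 15.7% higher). Hspb1, Hspb7, Hspa8, Hsp90aa1, Dnajb1, Hspa1a and Hspa1b were called in neither fit. Every other fit that left out a library called 0 members, as did the main fit.

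**Figure D3:**
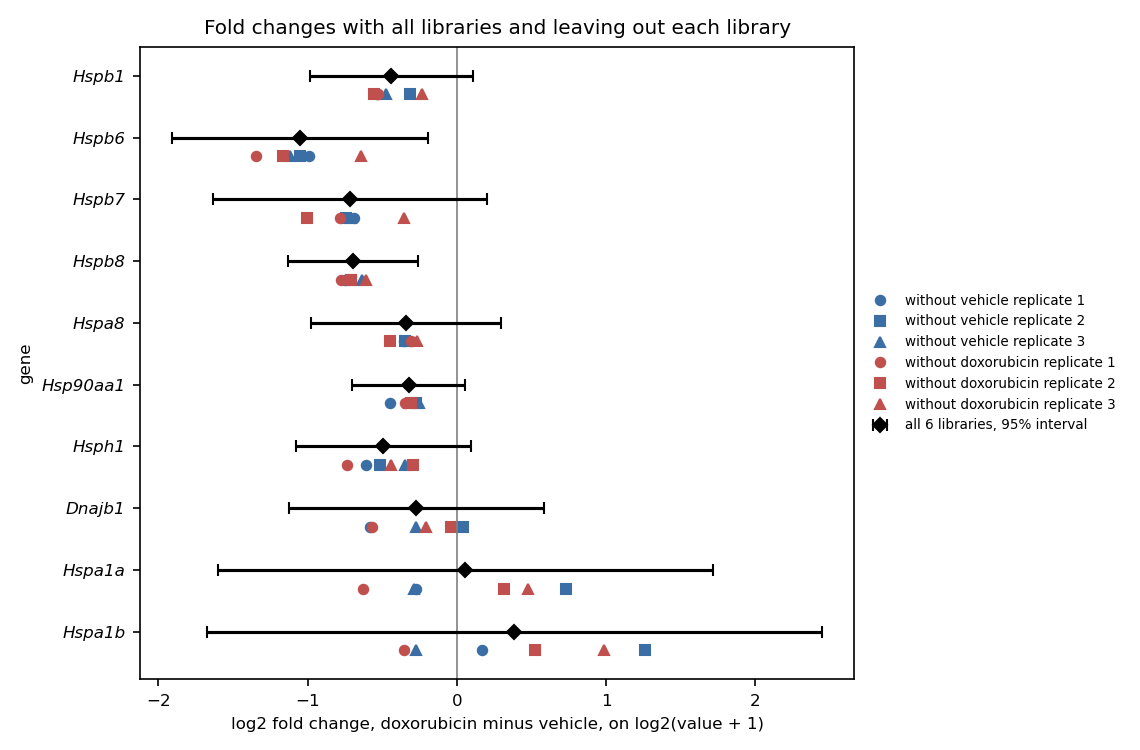
Log2 fold change of each transcript, doxorubicin minus vehicle, with all 6 libraries (black diamonds with 95% intervals from limma) and after leaving out each library in turn (coloured markers). Values for Hspb6, Hspb7, Hspb8, Hspb1, Hspa8, Hsp90aa1 and Hsph1 stay below 0 in all 6 fits that leave out a library. Those of Hspa1a run from -0.63 to 0.73 and those of Hspa1b from -0.35 to 1.26.

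The lower small heat shock values ran alongside lower markers of the ventricular cardiomyocyte. In doxorubicin replicates 1, 2 and 3 the median change from the vehicle mean was -0.50, -0.44 and -1.15 for Hspb1, Hspb6, Hspb7 and Hspb8, and -0.43, -1.74 and -2.18 for the 12 ventricular markers. The markers were thus further below vehicle than the small heat shock transcripts in replicates 2 and 3, and about level with them in replicate 1. The part of the markers' shift in the small heat shock values was not tested. The ratios of Hspb6 to other members overlapped between groups. To Hspa8 the ratio was 0.591, 0.538 and 0.478 with vehicle and 0.514, 0.329 and 0.205 with doxorubicin. To Hspb8 it was 2.07, 1.80 and 1.49 against 1.88, 1.599 and 0.884. To Hspb7 it was 0.417, 0.416 and 0.361 against 0.431, 0.245 and 0.293, where doxorubicin replicate 1 lay above every vehicle library.

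The genes whose pattern over the 6 libraries was closest to that of Hspb6 were Rpl3l, Cisd1 and Sdhb. Closeness was the root mean square difference of the log2 change from the vehicle mean, over 8202 genes with a mean of at least 100. The nearest was Rpl3l, a ribosomal protein found in striated muscle, at 0.054, with 2422, 2231 and 2103 in the vehicle and 1629, 1234 and 666 in the doxorubicin libraries. Cisd1, an iron-sulfur protein of the outer mitochondrial membrane (0.061), and Sdhb, a subunit of succinate dehydrogenase (0.063), came next. Of the other members Hspb7 was nearest to Hspb6, at 0.35. The 3 genes were picked as the closest of 8202, so their being nearer than the few other members carries no weight. For Hspa1b, the member with the highest fold change, the closest outside the set were Ucp3 (0.93), Adamts1 (0.98) and Adamts9 (0.99). Hspa1a, whose reads can often not be told from those of Hspa1b, lay at 0.44. The measure is not scaled to a gene's spread, so distances of the 2 members are not comparable. The SD of log2 values was 1.58 with vehicle and 1.36 with doxorubicin for Hspa1b, against 0.13 and 0.74 for Hspb6.

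The wider chaperone network was read from 8 lists of related genes, of which 75 genes were tested and 0 passed the adjusted threshold. Of these, 60 had a value below 0 and 15 above, with a median of -0.40. Without overlap 44 were lower and 4 higher, against 22.6% and 19.2% of all genes tested. Among all tested genes with a mean of at least 1000, 46.5% were lower without overlap and the median was -0.35. The listed genes lay on both sides of that mean, and the part of level in these counts was not tested. The plot of fold changes by list shows the medians.

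Among the other small heat shock genes 3 of 4 tested were lower without overlap. The share was 22.6% of all genes tested and 46.5% of those with a mean of at least 1000. Cryab, whose product stabilizes desmin and which was named outside the rule for its level, had 14971, 13272 and 13987 with vehicle and 10347, 10828 and 5821 with doxorubicin (log2 fold change -0.70, SE 0.32, adjusted p 0.159). Hspb3 had the lowest value of the list, 80.7, 75.2 and 63.0 against 55.5, 10.8 and 16.6 (-1.69, SE 0.54, adjusted p 0.0869). Hspb11, which despite its symbol belongs to the intraflagellar transport machinery, had the highest (0.36, adjusted p 0.456). Cryaa and Hspb9 did not reach the minimum mean. Of the partners of small heat shock proteins in the sarcomere and in autophagy, 4 of 6 were lower without overlap, beside the same 22.6% and 46.5%. The list ran from Ttn, the titin spring (-1.22, adjusted p 0.187, groups overlapping), which with Actn2 is also among the ventricular markers, to Sqstm1, the autophagy receptor p62, whose values of 3027, 3208 and 3042 with vehicle and 2528, 7312 and 3999 with doxorubicin overlapped (0.44, adjusted p 0.403).

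All 9 nucleotide exchange and client transfer factors had groups apart, 7 lower and 2 higher. Of all genes tested 22.6% were lower and 19.2% higher without overlap. Of those with a mean of at least 1000, 46.5% were lower. The lowest was Bag2, an inhibitor of the ubiquitin ligase that works with Hsp70, with 379.9, 382 and 370.4 with vehicle and 289, 199 and 111 with doxorubicin (-1.02, SE 0.32, adjusted p 0.0863). The highest was Bag5, with 212, 185 and 174 against 259, 285 and 459.8 (0.77, SE 0.23, adjusted p 0.0859). Bag3, the partner of Hspb8, had 2359, 2729 and 2456 with vehicle and 1854, 2319 and 1542 with doxorubicin (-0.42, SE 0.20, adjusted p 0.169). It was named outside the rule as the partner of a member. Of 11 J-domain genes 6 were lower without overlap, from Dnajb5 at -1.14 (SE 0.24, adjusted p 0.0859) to Dnaja1 at 0.09 (adjusted p 0.754). Of 8 Hsp70 relatives 2 were lower and 2 higher without overlap, close to the shares of all genes tested. Hspa12a was lowest (-1.08, adjusted p 0.0863). Hspa12b, known from endothelial cells, was highest (0.68, adjusted p 0.0966) where the summed endothelial markers were also higher, and their part in it was not tested.

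The list of Hsp90 and its cochaperones, which includes Hsp90ab1, held the widest range. Of its 15 genes 9 were lower and 0 higher without overlap, against 22.6% and 19.2% of all genes tested. Of tested genes with a mean of at least 1000, 46.5% were lower without overlap. Fkbp4 and Fkbp5 encode immunophilins that compete on Hsp90 bound to steroid receptors, and Fkbp5 is induced by glucocorticoids. Fkbp4 had 3854, 3972 (3971.5) and 4413 with vehicle and 2929, 897 and 864 with doxorubicin (log2 fold change -1.63, SE 0.45, adjusted p 0.0859). Fkbp5 had 84.7, 114 and 75.2 with vehicle and 91.7, 1464 and 727 with doxorubicin (2.35, SE 0.89, adjusted p 0.109), so that doxorubicin replicate 1 lay within the vehicle range and the other treated libraries far above it. Of the 4 tested genes for heat shock factors and their binding protein all were below 0. Without overlap 2 of them were lower, beside the same 22.6% of all genes tested. Hsf1, which drives the inducible genes, had 376, 321 and 324 against 302, 223 and 218 (-0.47, SE 0.17, adjusted p 0.106). Hsf4 had the least negative value of the list (-0.19, adjusted p 0.701).

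**Figure D4:**
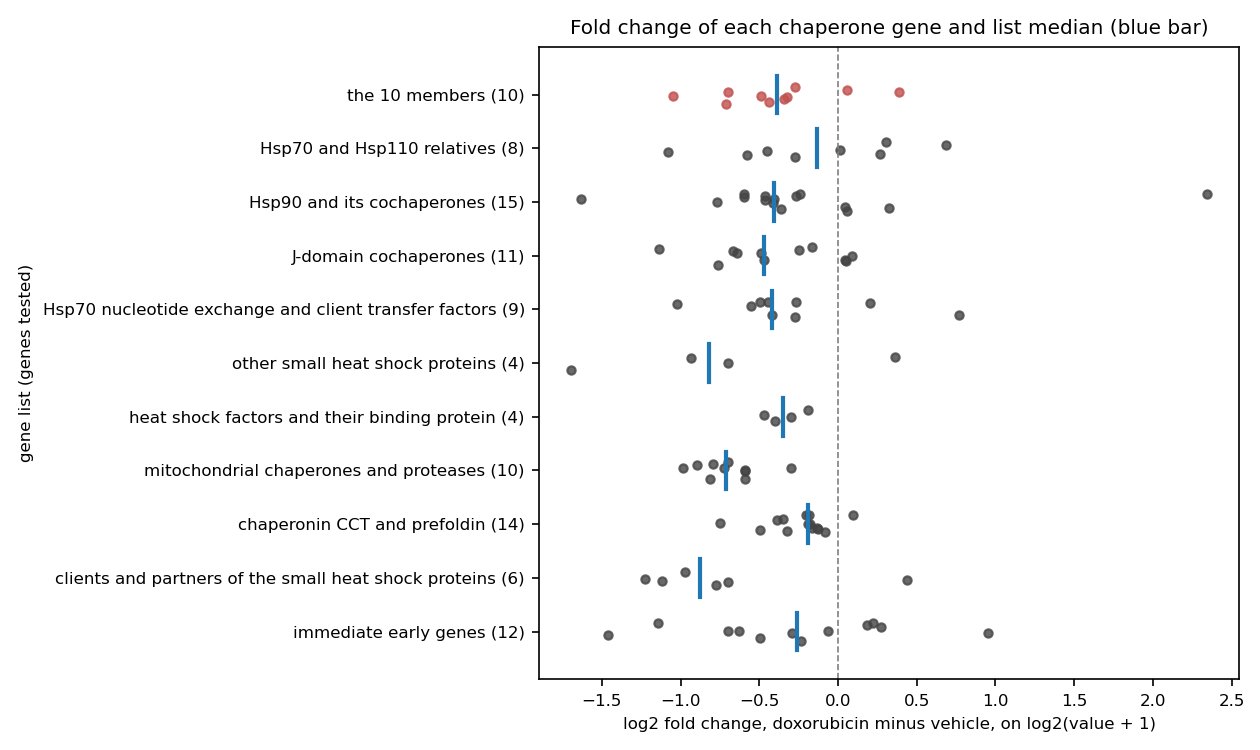
Log2 fold change, doxorubicin minus vehicle, of every tested gene (points) in the heat shock set (red) and in each list of related genes (grey), with list medians as blue bars and the number of genes tested in brackets. Medians run from -0.87 for partners of small heat shock proteins to -0.13 for Hsp70 relatives, and Fkbp5 lies far to the right at 2.35.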

How the data were processed

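The authors' deposited table holds normalized read counts per gene, a signal that is never negative, with 1 column per library and replicates not pooled. Per the labels' design text, BaseSpace was used, with the STAR aligner of RNAseq Alignment 2.0.2 on mm10 (RefSeq), then RNA-seq Differential Expression 1.0.1. The submitters' processing notes name STAR 2.6.1a and Salmon, with no role. How strand was handled and how values were normalized is not given in the sources used here. Median-ratio factors computed on the deposited values were 1.006 in all 6 libraries. Low values clustered at multiples of a step (80.1% to 92.5% of those below 8.5 steps were off by at most 0.1 step), too few for tests on whole reads, so depth was estimated as total over step.

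Groups and replicate numbers came from the titles. Values were used as deposited, with a pseudocount of 1, log2, a minimum mean of 10 over 6 libraries, and limma 3.58.1 in R 4.3.3 with a mean-dependent prior, two-sided, Benjamini-Hochberg adjusted over all 12477 genes, at a threshold of 0.05. This understates the change of low genes. The script was tested on simulated data. Levels per kilobase used the longest principal coding transcript of GENCODE M21, and coordinates are RefSeq's for GRCm38, counted from 1. The rows include 24 names that read as dates and 2 repeated names, none reported.

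Genes named were the 10 members, the extremes of each chaperone list by fold change, and the 3 nearest genes of the members with the highest and lowest fold change. Members and lists were chosen with earlier results of these data known. Replicates are 3 mice per group, per the labels. Each p-value sets the difference between groups against the spread of libraries within them. That spread entered limma as a common variance per gene for both groups, moderated by the prior. The median SD of log2 values was 0.163 with vehicle and 0.334 with doxorubicin. What this unequal spread does to the intervals and calls was not tested. Alternatives were pseudocounts, filters, scalings, prior, robust estimation, weights, an Xist or Y-linked class covariate, a replicate block, leaving out each library and a threshold of 0.10.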

Additional observations from a re-analysis of the deposited data

How the results depend on the processing

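Keeping all 6 libraries, unweighted, limma called 0 members and 0 genes at the 0.05 threshold under each pseudocount, filter, scaling and prior tried and with the class covariate. Library weights gave 1954 genes higher, 2318 lower and 3 members, and a threshold of 0.10 gave 1383, 1639 and 2 members (Hspb6 and Hspb8, both lower, against 13.1% of genes). Leaving out 1 library gave 0 to 2409 genes higher, 0 to 2718 lower and 0 to 3 members. The highest of each came without doxorubicin replicate 1, and removing doxorubicin replicate 2 gave 0 higher and 1 lower (Zfp966, chosen after seeing values).

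The median of the members, -0.39, was -0.0879 with equal totals, where the median of all genes was 0.29, and -0.60 to -0.29 leaving out 1 library. Some single values changed sign. Hspa1a was -0.62 with library weights and -0.63 to 0.73 leaving out 1 library. Hspa1b was -0.31 and -0.35 to 1.26, and Dnajb1 was 0.0297 with equal totals and -0.58 to 0.0419 (without vehicle replicate 2) leaving out 1 library. Hspa8 was 0.12 under quantile normalization. The causes were not tested. Hspb1, Hspb6, Hspb7, Hspb8, Hsp90aa1 and Hsph1 were below 0 under both other pseudocounts, equal totals, quantile normalization, library weights, the class covariate and each of the 6 fits leaving out a library. The other filters, priors and the block cannot move a fold change, and median-ratio scaling barely did.

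Same-numbered libraries did not deviate together from their group means (Pearson r across genes -0.128, 0.0331 and -0.0928). With the replicate block limma called 0 genes higher, 0 lower and 0 members, with 3708 genes at an unadjusted p under 0.05 against 4485. No vehicle library correlated best with its own number. Every doxorubicin library was shallower than every vehicle library, and its effect on precision was not tested.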

Other observations

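Chaperones of other compartments were not part of the heat shock set. All 10 mitochondrial chaperones and proteases had a log2 fold change below 0, with a median of -0.71. Without overlap 8 were lower, against 22.6% of all genes tested and 46.5% of those with a mean of at least 1000. None of the 10 passed the adjusted threshold. Hspa9, the Hsp70 of the mitochondrial matrix that pulls in imported proteins, was lowest. Its normalized counts were 6276, 7032 and 7849 with vehicle and 5459, 3279 and 2498 with doxorubicin (-0.98, SE 0.31, limma adjusted p 0.0865). Clpx, the unfoldase of the Clp protease, was the least negative, with 884, 937 and 958 against 834, 889 and 578 (-0.30, adjusted p 0.288). The matrix chaperonin Hspd1 and its lid Hspe1, named outside the rule, had -0.73 and -0.89 (adjusted p 0.0892 and 0.0859).

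The cytosolic chaperonin CCT, which folds actin and tubulin, and prefoldin showed smaller values. Of 14 genes 13 were below 0, with a median of -0.19, and 7 were lower without overlap, beside the same 22.6% and 46.5%. They ran from Pfdn1 (-0.75, adjusted p 0.105) to Pfdn5 (0.10, adjusted p 0.718). Among the immediate early genes Atf3 had the lowest value (-1.46, SE 0.66, adjusted p 0.152) and Ier3 the highest (0.95, SE 0.40, adjusted p 0.133), and the groups of both overlapped.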
